A study of Mus musculus with 32 samples.

Results

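The genes described here are the mouse olfactory receptor genes with reads in cultured pancreatic islets. They are the rows whose symbol is Olfr followed by a number and whose deposited count was 10 or more in at least 16 of the 32 libraries. Of 36595 genes in the table, 1109 had such a symbol and 194 met the rule. Olfr552, Olfr1238 and Olfr477 reached the same level and were left out by name with earlier results of these data known, so no count below covers them. The members were thus chosen by their own count levels, and the presence of reads in these genes is a description and not a result. The members nearest to the threshold were Olfr381, Olfr380 and Olfr39, each with 10 counts or more in 16 libraries and with 373, 515 and 543 counts in all, and Olfr414 and Olfr78 with 17 libraries. Just outside it, with 15 libraries each, lay Olfr545, Olfr17, Olfr1109, Olfr1202 and Olfr1297, with 595, 537, 515, 441 and 417 counts in all.

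The libraries were made from poly(A)-selected, DNase-treated RNA of islets from mice of both sexes aged 10 weeks, strain C57BL/6NHsd. In the hIAPP animals homologous recombination had replaced mouse Iapp with the gene for human islet amyloid polypeptide, and the mIAPP animals were wild-type littermates. After overnight recovery the islets of either genotype were kept for 48 h in medium with 16.7 or 11.1 mM glucose. This gave 4 groups of 8 libraries, called hIAPP 16.7 mM, mIAPP 16.7 mM, hIAPP 11.1 mM and mIAPP 11.1 mM below. Each of 8 experiment sets held 1 library of every group, and the number of animals behind a set is not given in the sources used here. The set was fitted as a block, so p values measure the spread of libraries left after group and set, and not differences in level between sets or the spread between animals.

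Olfactory receptors are G protein-coupled receptors of sensory neurons in the nasal epithelium. Each mature neuron expresses a single receptor allele, which signals through the G protein subunit Gnal, the adenylyl cyclase Adcy3 and a cyclic nucleotide-gated channel that contains Cnga2. The coding sequence usually lies within a single exon, often behind noncoding upstream exons. Class I receptors, the kind related to fish receptors, are encoded in a cluster on chromosome 7, and class II receptors in clusters on many chromosomes. Transcripts of some receptors have been reported in tissues outside the nose, islets among them. No ligand is given below for most members.

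Of the 194 members 26 were class I and 161 class II by their RefSeq synonyms, and 7 had no class name. All 26 class I members lay on chromosome 7. Most members came from 3 chromosomes, with 57 of the 282 Olfr rows of chromosome 2, 41 of the 240 of chromosome 7 and 24 of the 133 of chromosome 9. Every member was annotated as protein coding in GENCODE M21 on GRCm38, the build of all positions below. The annotated exons of a member covered a median of 4412 bases, against 2690 bases for the Olfr rows outside the list, of which 338 had no count in any library.

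Of 7 named members with an upstream window close to the annotated start, the sequence is shown for the 3 with a motif match. Olfr46, Olfr558, Olfr620 and Olfr624 had 0 matches and are not shown. As described below, Olfr607 rose with the mitochondrial share of a library and Olfr330 fell with it. Olfr39 had the interaction of genotype and glucose farthest from 0. Chosen by their matches, these 3 do not stand for other members with the same patterns. RefSeq windows of GRCm38.p6 were found for 163 members, and 13 of them, these 3 included, lay within 200 bases of the GENCODE start of the gene. Each line gives the 250 bases before the RefSeq start, 5′ to 3′ on the strand of the gene, in lower case with a matched motif in capitals. The motif is TAATTA, a homeodomain-type core, in Olfr607 (chr7:103464127-103464376, minus strand) and Olfr39 (chr9:20282101-20282350, plus strand), and CCCNNGGG, an Ebf-type core, in Olfr330 (chr11:58534826-58535075, minus strand).
Olfr607: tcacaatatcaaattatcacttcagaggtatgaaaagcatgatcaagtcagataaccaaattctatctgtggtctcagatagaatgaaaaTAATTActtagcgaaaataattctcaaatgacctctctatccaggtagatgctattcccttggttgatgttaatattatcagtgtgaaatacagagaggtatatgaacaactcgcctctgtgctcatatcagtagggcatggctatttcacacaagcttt
Olfr330: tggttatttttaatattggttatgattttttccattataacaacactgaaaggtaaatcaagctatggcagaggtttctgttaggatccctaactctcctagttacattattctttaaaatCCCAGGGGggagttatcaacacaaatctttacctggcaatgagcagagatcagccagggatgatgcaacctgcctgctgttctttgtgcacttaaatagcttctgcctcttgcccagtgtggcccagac
Olfr39: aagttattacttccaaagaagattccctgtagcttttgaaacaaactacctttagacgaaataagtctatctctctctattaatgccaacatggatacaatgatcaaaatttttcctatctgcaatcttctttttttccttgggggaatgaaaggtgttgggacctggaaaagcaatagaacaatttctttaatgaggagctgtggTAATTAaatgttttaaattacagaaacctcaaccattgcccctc
The matches began at -160, -129 and -44 from the RefSeq start of Olfr607, Olfr330 and Olfr39, and none overlapped another motif searched. TAATTA was present, on either strand, in 28 of the 163 member windows (17.2%) and in 4.84% of all 32851 windows. CCCNNGGG was present in 6 member windows (3.68%) and in 11.8% of all windows, and the TATA-type core TATAAA in 58 member windows (35.6%) and in 12.4% of all. In the 13 windows near the GENCODE start, TAATTA was found in 3, CCCNNGGG in 3 and TATAAA in 0. The other 150 member windows lay farther than 200 bases from the GENCODE start. A match is a description of the letters and not a binding site.

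The libraries held 16.1 to 43.7 M counts each, and all 194 members passed the filter on low counts that left 16428 genes for testing. Summed levels of the 8 beta cell markers were 145835 to 335878 CPM (counts scaled with TMM to a common library total) over the libraries. The 10 markers of olfactory sensory neurons, all of them in the table, summed to 2.67 to 4.79 CPM in hIAPP 16.7 mM islets, 3.20 to 5.67 in mIAPP 16.7 mM, 2.46 to 5.12 in hIAPP 11.1 mM and 2.69 to 5.29 in mIAPP 11.1 mM. Of these markers, Cnga2 had 9 counts over the 32 libraries and was at 0 in 27, and S100a5 had 8 counts and was at 0 in 26. Rtp1 and Rtp2 had 45 and 27 counts and were at 0 in 19 and 18 libraries. The others were read in most libraries: Gnal had 1915 counts and was at 0 in none, and Omp and Cnga4 had 644 and 398 and were at 0 in 1 each. Gng13, Stoml3 and Umodl1 had 182, 139 and 100 counts and were at 0 in 2, 2 and 6 libraries. The share of counts in the 13 mitochondrially encoded genes averaged 4.06 ± 1.63% (SD, n = 8) in hIAPP 16.7 mM islets, 11.3 ± 11.2% in mIAPP 16.7 mM, 16.6 ± 7.83% in hIAPP 11.1 mM and 18.2 ± 11.6% in mIAPP 11.1 mM. A single library stood apart, that of set 7 in the mIAPP 16.7 mM group, at a share of 37.0% with 13.4% as the next highest of its group. The main counts of the comparisons that include it are also given without it. Counts within the 16 libraries at 16.7 mM, with the share as a covariate, for shorter lists and under most other settings include it.

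Most members were read at low levels. The mean level over the 32 libraries had a median of 1.14 CPM over the members, 88 of them lay under 1 CPM and 15 over 10 CPM, and the 10 highest held 43.1% of the summed level. The highest were Olfr46 (63.6 CPM), Olfr1385 (48.9), Olfr784 (37.6), Olfr986 (28.6), Olfr1023 (28.1), Olfr90 (18.5), Olfr769 (16.6), Olfr1307 (16.6), Olfr344 (13.3) and Olfr635 (12.2). Of these only Olfr635 is a class I receptor. Divided by the annotated exon length the order changed: Olfr784 had 12.1 CPM per kb, Olfr1385 had 11.04, Olfr986 had 8.21, Olfr46 had 8.13 and Olfr1023 had 5.93, against a median of 0.275 CPM per kb over the members. Olfr1307, whose annotated exons cover 15582 bases, had 1.07 CPM per kb.

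Reads of several of the highest members cannot be assigned with certainty, because their annotated transcripts share sequence with other genes. Over the members a median of 9.57% of the 31-base stretches also occurred in another gene, with a range of 0.294 to 49.8%. For 101 members the share was under 10%, and for 29 it was over 25%. It was 48.7% for Olfr784, 47.5% for Olfr46 and 42.9% for Olfr1385, against 10.8% for Olfr986, 8.09% for Olfr1023 and 0.982% for Olfr152. Olfr784 (chromosome 10, 129384083 to 129390198, plus strand) shared 17.9% of its stretches, with a longest common run of 181 bases, with Slc38a6, a gene of a solute carrier family at 269 CPM. Olfr1385 (chromosome 11, 49489070 to 49497496, plus strand) shared 19.4% with Olfr1386, which had 0 counts in all libraries. Annotated exons of 8 members overlapped another gene on the same strand and those of 7 members one on the opposite strand. The library kit marks strand, but whether the quantification used it is not given in the sources used here, so the levels of these members are uncertain.

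**Figure D1:**
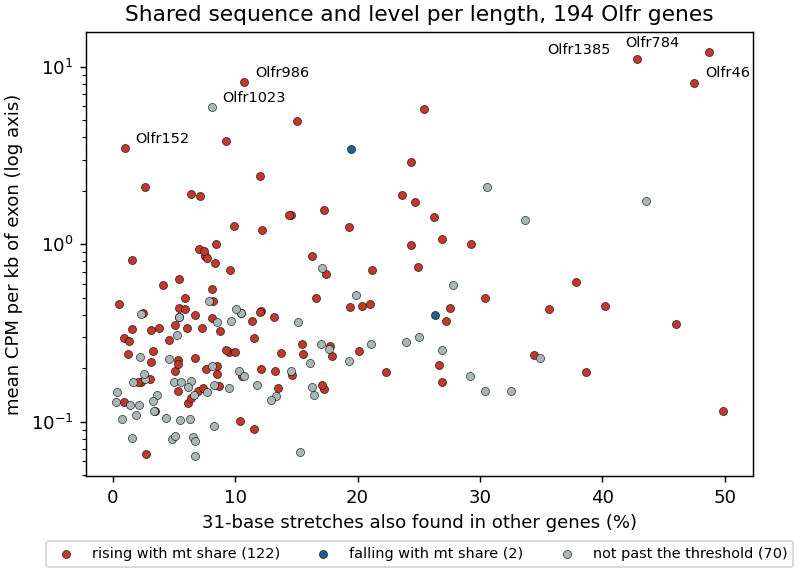
Share of 31-base stretches of each of the 194 Olfr genes that also occur in another gene (x axis, %) against its mean level per kb of annotated exon over 32 libraries (y axis, CPM per kb, log axis), coloured by the slope on the mitochondrial share. Of the 5 genes with the highest level per kb, Olfr784, Olfr46 and Olfr1385 lie at 48.7, 47.5 and 42.9% and Olfr986 and Olfr1023 at 10.8 and 8.09%.

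The summed level of the members was higher in libraries with a higher mitochondrial share. It was 319.8, 361 and 456 CPM (lowest, median and highest of 8 libraries) in hIAPP 16.7 mM islets and 295, 539 and 1772 CPM in mIAPP 16.7 mM islets. At the lower glucose concentration it was 426, 766 and 1169 CPM in hIAPP 11.1 mM and 328, 755 and 1719 CPM in mIAPP 11.1 mM islets. All 4 ranges overlapped. On this TMM-scaled level set 7 gave the highest sum in every group except hIAPP 16.7 mM, where set 8 did, while as a plain share of counts set 5 was the highest in hIAPP 11.1 mM (0.108%, with 0.0948% in set 7). Within a group, Pearson's r between the log2 of the sum and the log2 of the share was 0.966 in hIAPP 16.7 mM, 0.955 in mIAPP 16.7 mM, 0.926 in hIAPP 11.1 mM and 0.952 in mIAPP 11.1 mM islets (n = 8 libraries each), and Spearman's rho in the same order was 0.952, 0.952, 0.857 and 1.00. Without the 2 libraries whose share lay farthest from the group median, r was 0.849, 0.950, 0.706 and 0.866. Both values of a point come from the same library and depth, so these correlations describe the libraries and carry no test. When mitochondrial counts were left out of the denominator and no TMM scaling was applied, the sums averaged 429.8 ± 54.6, 704 ± 429, 918 ± 297 and 942 ± 451 CPM (SD, n = 8) in the same order, with r of 0.956, 0.958, 0.901 and 0.986. In bulk RNA, fewer cells of a type and less RNA per cell cannot be told apart.

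**Figure D2:**
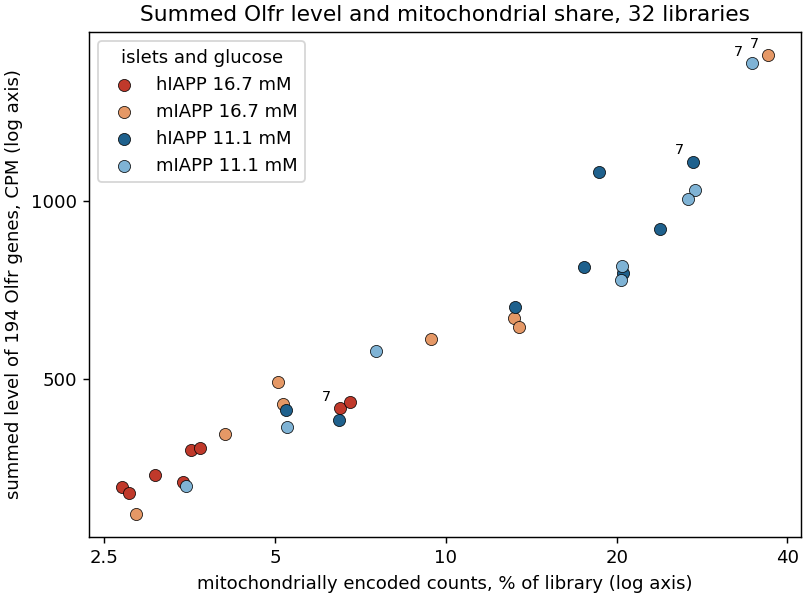
Summed level of the 194 Olfr genes (y axis, CPM, log axis) against the mitochondrially encoded share of counts (x axis, %, log axis) in each of 32 libraries, coloured by group, with the libraries of set 7 marked 7. The sum was highest, at 1772 CPM, in the mIAPP 16.7 mM library with a share of 37.0%, and the 8 hIAPP 16.7 mM libraries lie at 319.8 to 456 CPM and shares of 2.68 to 6.76%.

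Gene by gene, 122 members rose and 2 fell with the mitochondrial share in a fit that also held the 4 groups and the sets, and 70 did not pass the test. Of all 16428 genes tested, 17.3% rose and 20.2% fell (37.5% either way). The median slope was a log2 change of 0.55 per doubling of the share over the members and -0.01 over all genes, and 183 of the 194 slopes were positive. Among the members that rose with the smallest p, Olfr1385 had a slope of 0.70 ± 0.06 (SE; edgeR quasi-likelihood test, adjusted p = 1.73e-08), Olfr344 one of 1.12 ± 0.11 and Olfr620 one of 1.55 ± 0.16. Olfr769, Olfr607, Olfr905, Olfr57 and Olfr1271 followed with 0.75 ± 0.08, 0.80 ± 0.08, 1.22 ± 0.14, 1.68 ± 0.19 and 0.86 ± 0.11. Counts in pseudogenes took 1.11% of the total on average in hIAPP 16.7 mM, 1.61% in mIAPP 16.7 mM, 2.47% in hIAPP 11.1 mM and 2.55% in mIAPP 11.1 mM islets. The part of that share in the slopes was not tested.

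**Figure D3:**
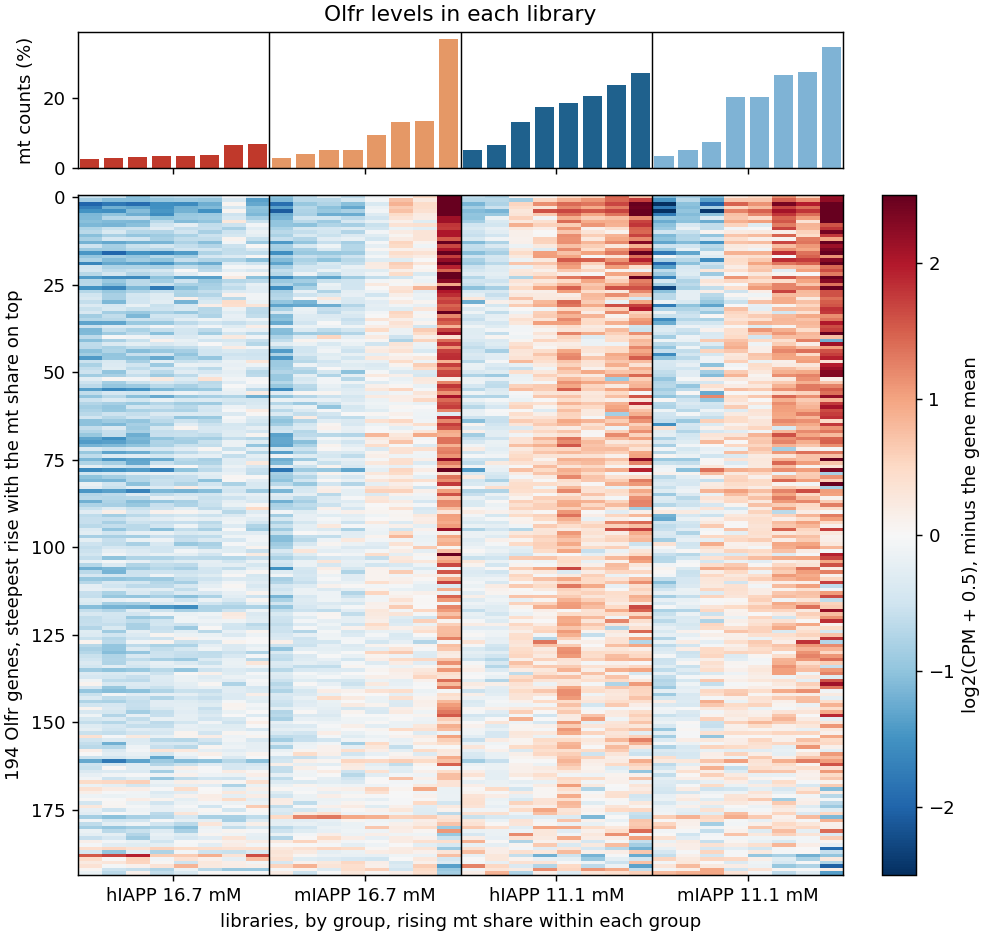
Level of each of the 194 Olfr genes (one row each, steepest rise with the mitochondrial share on top) in each library (columns, by group and by rising share within a group), as log2(CPM + 0.5) minus the mean of the gene, with the share (%) as bars on top. The slope on the share was positive for 183 of the 194 genes, and levels run from lower (blue) to higher (red) towards the right of the groups, up to the mIAPP 16.7 mM library at 37.0%.

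Olfr57 (chromosome 10, 79028741 to 79036274, plus strand) had the steepest of these 8 slopes. Its level was 0.599, 0.971 and 4.05 CPM (lowest, median and highest) in hIAPP 16.7 mM islets and 0.668, 2.45 and 45.4 CPM in mIAPP 16.7 mM islets. In hIAPP 11.1 mM islets it was 1.47, 9.83 and 27.5 CPM, and in mIAPP 11.1 mM islets 0.0806, 10.2 and 50.8 CPM. The 4 groups overlapped, and both the lowest and the highest of the 32 values came from mIAPP 11.1 mM. Olfr607, the class I gene whose upstream sequence is printed above (chromosome 7, 103455526 to 103464151, minus strand), ran at 1.86 to 4.20 CPM in hIAPP 16.7 mM, 1.81 to 22.2 in mIAPP 16.7 mM, 4.17 to 17.5 in hIAPP 11.1 mM and 2.66 to 23.6 in mIAPP 11.1 mM islets. Its groups overlapped as well.

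Olfr905, Olfr906 and Olfr907 lie side by side on chromosome 9 within 28776 bases (from 38471107 to 38499882, plus strand). Their slopes were 1.22 ± 0.14, 1.06 ± 0.19 and 1.70 ± 0.29 (edgeR, adjusted p = 4.78e-07, 0.000188 and 9.83e-05). Olfr906 also had the largest ratio of its highest library, 77.5 CPM in set 7 of hIAPP 11.1 mM, to its median library, at 40.9. The next largest ratios were 32.1 for Olfr907, 23.5 for Olfr620, 23.0 for Olfr157 and 22.9 for Olfr39.

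Only Olfr648 and Olfr330 fell with the share past the threshold. Olfr648, a class I gene (chromosome 7, 104177598 to 104183392, minus strand), stood at 8.79, 10.6 and 16.7 CPM in hIAPP 16.7 mM and 3.22, 11.8 and 16.9 CPM in mIAPP 16.7 mM islets, and at 3.28, 7.52 and 22.01 CPM in hIAPP 11.1 mM and 1.81, 9.29 and 16.1 CPM in mIAPP 11.1 mM islets. The groups overlapped, and the slope was -0.48 ± 0.16 (edgeR, adjusted p = 0.0211). Olfr330, at a mean of 1.16 CPM, had a slope of -0.76 ± 0.26 (adjusted p = 0.0248), and 26.3% of its 31-base stretches occur in other genes. That of Olfr648 was 0.30 within the 16 libraries at 11.1 mM and that of Olfr330 was 0.0186 without group terms, and leaving out the mIAPP 16.7 mM library of set 7 left 0 members that fell. Olfr1023, among the 5 highest in CPM, had a slope of -0.07 ± 0.11 (adjusted p = 0.641) and Olfr1173 one of -0.10 ± 0.19 (adjusted p = 0.702).

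Within the 16 libraries at 16.7 mM alone, 158 members were tested, of which 53 rose and 2, Olfr648 and Olfr1023, fell with the share, against 29.1% of all genes called either way. That fit includes the mIAPP 16.7 mM library of set 7, whose share was far above the others, and was not repeated without it. Within the 16 at 11.1 mM, 191 were tested, of which 23 rose and 0 fell, against 4.39% of all genes. The median slopes were 0.54 at 16.7 mM and 0.70 at 11.1 mM. Leaving out the mIAPP 16.7 mM library of set 7, 108 members rose in the fit of all groups (30.6% of all genes called), at a median of 0.55.

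The number of members past the threshold differed with their level. Of the 65 members with the highest mean CPM 59 rose with the share, of the middle 64 it was 40, and of the lowest 65 it was 23, at median slopes of 0.64, 0.54 and 0.52. By class, 16 of 26 class I and 103 of 161 class II members rose, at medians of 0.55 and 0.56. Of the 65 members that share least sequence with other genes 35 rose, of the middle 64 it was 46 and of the highest 65 it was 41, at medians of 0.53, 0.67 and 0.50. Among the 179 members with no exon overlap 112 rose, and among the 15 with one 10 rose, at medians of 0.55 and 0.46. These splits were not tested against each other.

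Vomeronasal receptor genes rose with the share as well. Of 66 vomeronasal type 1 receptor genes tested 45 rose and 0 fell with the share, at a median of 0.63, and of 63 type 2 genes 41 rose and 0 fell, also at 0.63. Among 47 tested Olfr genes outside the rule (the 3 excluded ones not counted) 25 rose and 0 fell, at a median of 0.88, and among 15 tested rows with Olfr pseudogene symbols 9 rose and 0 fell, at 0.54. Of all tested pseudogenes 303 of 978 rose (30.98%), and of protein coding genes 2493 of 15235 (16.4%). The 1 trace amine-associated receptor gene tested (Taar) fell, at -0.95. Of 2 sweet and umami taste receptor genes (Tas1r) 0 rose and 0 fell, at a median of -0.16, and of 8 Ms4a genes 3 rose and 0 fell, at 0.25. None of the 35 bitter taste receptor rows (Tas2r) passed the filter on low counts. No test set the members against these families.

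Genes that serve olfactory receptors in sensory neurons were called in both directions. So were all genes tested, of which 17.3% rose and 20.2% fell with the share (37.5% either way). The calls in the lists below are a description and no trait of these lists. Of 23 genes for olfactory signalling and receptor transport 16 were tested, of which 1 rose and 3 fell with the share. Arrb2, a receptor-binding arrestin, rose by 0.24 ± 0.07, while Ric8b, a chaperone of olfactory G proteins, had a slope of -0.18 ± 0.05, Grk3, a receptor kinase, -0.18 ± 0.07 and Gnb1, a G protein subunit, -0.15 ± 0.05. Gnal had 0.16 ± 0.15 and Adcy3 -0.27 ± 0.14, and neither passed. Of 17 tested genes for receptor choice 4 rose and 3 fell. Ebf1, a transcription factor of olfactory neurons that other cells also express, rose by 0.74 ± 0.11 per doubling. Ddit3, Cbx1 and Ehmt2 rose by 0.59 ± 0.11, 0.20 ± 0.06 and 0.19 ± 0.06. The slopes of Eif2ak3, Cbx5 and Trim28, which fell, were -0.50 ± 0.10, -0.21 ± 0.06 and -0.14 ± 0.05. Ebf2, Ebf3 and Ebf4 had -0.14 ± 0.31, -0.47 ± 0.31 and 0.33 ± 0.14 and did not pass. Lhx2 and Emx2, transcription factors of olfactory neurons, had 9 and 7 counts over all libraries and were not tested.

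The comparison of genotypes at 16.7 mM asks how islets that make the amyloid-forming human peptide differ from wild-type islets at high glucose. Of the 194 members 64 were lower and 2 higher in hIAPP islets, against 11.2% of all genes tested that were lower and 9.27% that were higher (20.5% either way). The median log2 fold change was -0.72 over the members and -0.01 over all genes, and 178 members had a negative value. The medians of the vomeronasal type 1 and 2 genes were near that of the members, at -0.75 and -0.65. Of 66 type 1 genes 22 were lower and 2 higher, and of 63 type 2 genes 21 and 0. The mitochondrial share of the same libraries was 2.68 to 6.76% in hIAPP 16.7 mM and 2.84 to 37.0% in mIAPP 16.7 mM islets. With log2 of that share as a covariate 6 members were lower and 2, Olfr624 and Olfr341, higher, against 4.58% of all genes called, and the median was -0.03. Leaving out the mIAPP 16.7 mM library of set 7, 28 members were lower and 2 higher (12.8% of all genes called), at a median of -0.60. All of set 7 left out gave 21 lower and 2 higher, set 1 gave 25 and 1, and set 6 gave 27 and 2. Of all genes tested, 1943 of 16456, 1623 of 16413 and 1852 of 16462 were called in these 3 fits.

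Olfr775 (chromosome 10, 129248412 to 129253924, plus strand) had the smallest p. Its level was 1.35, 2.52 and 3.43 CPM (lowest, median and highest of 8) in hIAPP 16.7 mM islets, against 4.12, 8.43 and 9.96 CPM in mIAPP 16.7 mM islets. The groups did not overlap, and the log2 fold change was -1.65 ± 0.17 (SE; edgeR quasi-likelihood test, adjusted p = 2.12e-07), lower in 8 of 8 sets, and -1.35 with the covariate (adjusted p = 3.23e-05). Olfr613, a class I gene (chromosome 7, 103548074 to 103555506, plus strand), stood at 0.0313, 0.117 and 0.308 CPM in hIAPP 16.7 mM islets, against 0.849, 1.34 and 2.21 CPM in mIAPP 16.7 mM islets. Again the groups did not overlap, with a log2 fold change of -3.36 ± 0.44 (adjusted p = 5.94e-06), lower in 8 of 8 sets, and -3.29 with the covariate. With under 10 counts in every hIAPP 16.7 mM library, it met the count rule through the other groups, mostly the mIAPP ones, so its place among the members was not independent of genotype. Olfr613 shared 3.56% of its 31-base stretches, with a common run of 149 bases, with Nudcd1, a NudC domain gene at 61.9 CPM. Nudcd1 was higher in hIAPP islets in the same comparison by 1.18 ± 0.08 (adjusted p = 1.45e-10).

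Olfr586, also class I (chromosome 7, 103118403 to 103125638, minus strand), had 0.239, 0.504 and 0.775 CPM in hIAPP 16.7 mM islets, against 0.612, 1.65 and 4.51 CPM in mIAPP 16.7 mM islets. The groups overlapped, and the log2 fold change was -1.73 ± 0.27 (edgeR, adjusted p = 6.56e-05), lower in 8 of 8 sets, and -1.13 with the covariate (adjusted p = 0.0186). Only 1.58% of its 31-base stretches occur in another gene. Olfr825 had 1.03 to 1.73 CPM in hIAPP 16.7 mM islets, below all mIAPP 16.7 mM libraries at 1.98 to 4.57 CPM (-0.98 ± 0.19, adjusted p = 0.000807). Olfr45, at 1.75 to 2.22 CPM in hIAPP 16.7 mM against 2.23 to 4.96 CPM in mIAPP 16.7 mM islets, did not overlap either (-0.55 ± 0.19, adjusted p = 0.0366). How many of all genes tested had no overlap was not counted, so its absence is only a description of these genes. Olfr90 had 4.53 to 10.9 CPM in hIAPP 16.7 mM and 6.60 to 31.5 CPM in mIAPP 16.7 mM islets (-1.32 ± 0.24, adjusted p = 0.000350), and Olfr1310 had 0.501 to 1.73 CPM in hIAPP 16.7 mM and 0.668 to 12.0 CPM in mIAPP 16.7 mM islets (-1.26 ± 0.26, adjusted p = 0.00156). With the covariate Olfr90 passed (edgeR, -0.60, adjusted p = 0.0483), while Olfr825, Olfr45 and Olfr1310 did not (-0.51, -0.19 and -0.48, adjusted p = 0.120, 0.799 and 0.306). Without the set as a block Olfr1310 did not pass either (-1.64, adjusted p = 0.0623). Lower levels were called in both classes, in 9 of 26 class I and 53 of 161 class II members.

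The 2 members that were higher in hIAPP 16.7 mM islets were Olfr1173 and Olfr624. Olfr1173 (chromosome 2, 88273040 to 88279875, minus strand) stood at 7.71, 15.0 and 24.5 CPM in hIAPP 16.7 mM islets, against 5.15, 5.46 and 10.4 CPM in mIAPP 16.7 mM islets. The groups overlapped, and the log2 fold change was 1.23 ± 0.26 (edgeR, adjusted p = 0.00160), higher in 7 of 8 sets. It was 1.11 with the covariate (adjusted p = 0.0616), and 17.9% of its 31-base stretches occur in Olfr1168, which had 0 counts. Olfr624, a class I gene, had 10.6, 14.5 and 18.1 CPM in hIAPP 16.7 mM islets and 8.999, 10.4 and 15.1 CPM in mIAPP 16.7 mM islets. The groups overlapped, and the log2 fold change was 0.44 ± 0.13 (adjusted p = 0.0204), 0.66 with the covariate. Without set 1, 2 or 4 it did not pass.

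**Figure D4:**
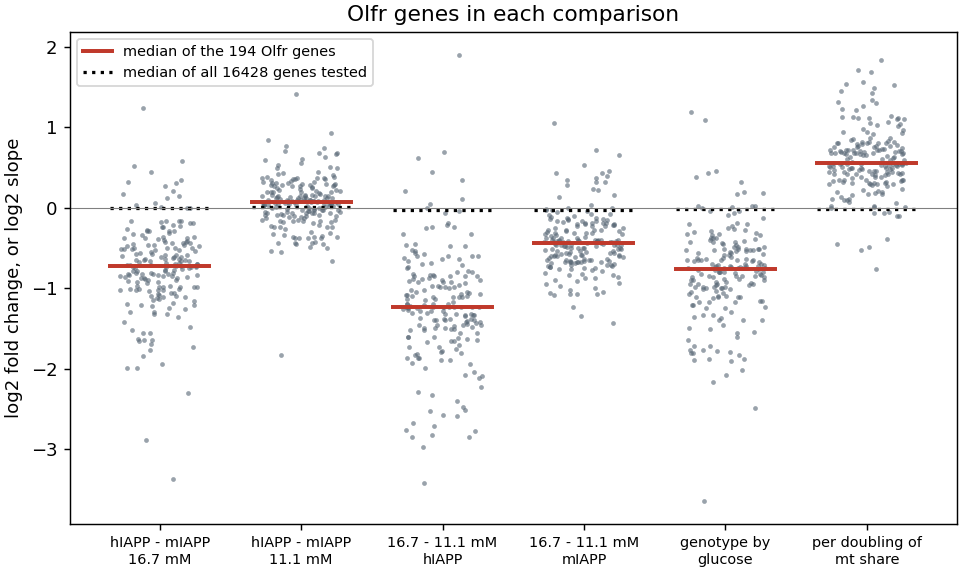
Log2 fold change of each of the 194 Olfr genes in the 5 group comparisons, and log2 slope per doubling of the mitochondrial share (points), with the median of these genes (red line) and of all 16428 genes tested (dotted line). The medians of the Olfr genes were -0.72, 0.07, -1.24, -0.44, -0.76 and 0.55 from left to right, and those of all genes were -0.01, 0.00, -0.02, -0.03, -0.02 and -0.01.

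At 11.1 mM the same genotype comparison called 0 of the 194 members in edgeR's quasi-likelihood test, against 0.128% of all genes (0.11% higher and 0.0183% lower), with 10 members at an unadjusted p under 0.05. DESeq2, and edgeR without set 7, each called Olfr341 higher (DESeq2 1.42, adjusted p = 0.00822) and Olfr613 lower (-1.85, adjusted p = 0.00119). The median log2 fold change was 0.07, with 121 positive and 73 negative values. The lowest adjusted p was 0.131, of Olfr613 (-1.83 ± 0.43), which had 0, 0.340 and 0.571 CPM in hIAPP 11.1 mM islets and 0, 1.18 and 1.54 CPM in mIAPP 11.1 mM islets. Its groups overlapped. Olfr775, at 2.97 to 11.3 CPM in hIAPP 11.1 mM against 7.01 to 14.9 CPM in mIAPP 11.1 mM islets, had -0.66 ± 0.17 (adjusted p = 0.261). The mitochondrial share overlapped widely, at 5.23 to 27.2% in hIAPP 11.1 mM and 3.49 to 34.7% in mIAPP 11.1 mM islets. With the share as a covariate 1 member passed, against 0.14% of all genes. It was Olfr341, named here after its values were seen, with 1.14 to 6.83 CPM in hIAPP 11.1 mM and 0.161 to 6.11 CPM in mIAPP 11.1 mM islets. It was higher in hIAPP islets in 8 of 8 sets, by 1.41 ± 0.33 without the covariate (adjusted p = 0.138) and 1.44 with it (adjusted p = 0.000196).

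The comparison of glucose concentrations in hIAPP islets gave the most calls. At 16.7 mM 163 members were lower and 4 higher than at 11.1 mM, against 33.3% of all genes lower and 32.2% higher (65.5% either way). The median log2 fold change was -1.24 over the members and -0.02 over all genes. It was -1.21 over the 66 vomeronasal type 1 genes, of which 54 were lower and 1 higher. Over the 63 type 2 genes it was -1.20, with 49 lower and 0 higher, so the shift was not particular to the members. Olfr586 had 0.239, 0.504 and 0.775 CPM in hIAPP 16.7 mM islets, against 1.24, 2.87 and 6.30 CPM in hIAPP 11.1 mM islets. The groups did not overlap, and the log2 fold change was -2.40 ± 0.27 (SE; edgeR, adjusted p = 5.33e-08), lower in 8 of 8 sets. Olfr1120 (chromosome 2, 87354815 to 87361786, plus strand), at 1.28 to 2.31 CPM at 16.7 mM against 2.34 to 6.63 CPM at 11.1 mM, and Olfr825, at 1.03 to 1.73 CPM at 16.7 mM against 2.19 to 6.68 CPM at 11.1 mM, did not overlap either (-1.35 ± 0.18 and -1.32 ± 0.19, adjusted p = 8.34e-07 and 2.03e-06). Olfr775, Olfr1310 and Olfr769 had -1.42 ± 0.18, -1.87 ± 0.26 and -1.73 ± 0.25, each lower in 8 of 8 sets with overlapping groups. With the mitochondrial covariate Olfr1120, Olfr825, Olfr1310 and Olfr769 did not pass (edgeR, -0.54, -0.48, -0.55 and -0.27, adjusted p = 0.114, 0.182, 0.206 and 0.360).

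Higher in hIAPP 16.7 mM than in hIAPP 11.1 mM islets were Olfr1173, Olfr1023, Olfr624 and Olfr1033. Olfr1173 had 7.71, 15.0 and 24.5 CPM at 16.7 mM, against 2.23, 3.90 and 7.41 CPM at 11.1 mM. There was no overlap, and it rose by 1.90 ± 0.26 (edgeR, adjusted p = 1.09e-06). Olfr1023 (chromosome 2, 85885640 to 85891213, plus strand) had 34.0, 35.8 and 39.6 CPM at 16.7 mM, against 11.4, 23.4 and 35.1 CPM at 11.1 mM. Its groups overlapped, and it rose by 0.69 ± 0.16 (adjusted p = 0.000445) in 8 of 8 sets. With the mitochondrial covariate it did not pass (edgeR, 0.55, adjusted p = 0.153). Olfr624 and Olfr1033 rose by 0.34 ± 0.13 and 0.62 ± 0.25 (adjusted p = 0.0264 and 0.0307). Without set 1, 2, 4 or 8 the call of Olfr624 was lost, and without set 1, 2, 5 or 8 that of Olfr1033, which was -0.14 with the covariate.

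In mIAPP islets fewer members passed. At 16.7 mM 27 were lower and 4 higher than at 11.1 mM, against 22.7% of all genes lower and 24.9% higher (47.5% either way), at a median of -0.44 over the members and -0.03 over all genes. Vomeronasal type 1 and 2 genes had medians of -0.31 and -0.33. Leaving out the mIAPP 16.7 mM library of set 7, 52 were lower and 2 higher (50.4% of all genes called), at a median of -0.58. All of set 7 left out gave 56 lower and 2 higher, set 2 gave 6 and 3, and set 8 gave 10 and 1. Of all genes tested, 8508 of 16456, 6269 of 16426 and 6517 of 16414 were called in these 3 fits. Olfr802 (chromosome 10, 129677683 to 129688169, minus strand) had the smallest p, at 0.668, 1.05 and 3.13 CPM in mIAPP 16.7 mM islets, against 0.726, 2.71 and 6.02 CPM in mIAPP 11.1 mM islets. The groups overlapped, 7 of 8 sets were lower, and the log2 fold change was -0.95 ± 0.23 (edgeR, adjusted p = 0.00159). Olfr1247, Olfr152, Olfr906, Olfr1122 and Olfr107 had -0.91 ± 0.22, -1.08 ± 0.29, -1.35 ± 0.40, -0.64 ± 0.19 and -0.71 ± 0.22.

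The 4 members higher in mIAPP 16.7 mM than in mIAPP 11.1 mM islets were Olfr1023, Olfr1402, Olfr1173 and Olfr250. Olfr1023 had 13.8, 32.3 and 38.4 CPM at 16.7 mM, against 6.59, 22.6 and 29.8 CPM at 11.1 mM. The groups overlapped, and it was higher by 0.53 ± 0.16 (edgeR, adjusted p = 0.00728) in 8 of 8 sets. Olfr1402, Olfr1173 and Olfr250 were higher by 1.05 ± 0.38, 0.71 ± 0.26 and 0.66 ± 0.25, in 6, 7 and 8 of 8 sets, and each of these 3 calls was lost when 1 of some sets was left out (3, 6 or 8 for Olfr1402, 1, 7 or 8 for Olfr1173, and 1, 2, 7 or 8 for Olfr250).

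With the mitochondrial share as a covariate fewer members passed for glucose. In hIAPP islets the share itself went largely with glucose, at 2.68 to 6.76% at 16.7 mM and 5.23 to 27.2% at 11.1 mM. Glucose and share thus cannot be told apart there, and the lower counts do not assign the changes to either. In mIAPP islets the share was 2.84 to 37.0% at 16.7 mM and 3.49 to 34.7% at 11.1 mM. In hIAPP islets 6 members were lower and 4 higher at 16.7 mM (19.4% of all genes called), at a median of -0.05. In mIAPP islets 3 were lower and 11 higher (35.3% of all genes called), at a median of 0.02. Of the 10 members called in hIAPP islets 8 had also been called without the covariate, among them Olfr586 (-1.40, adjusted p = 0.0102), Olfr1173 (1.69, adjusted p = 0.00807) and Olfr775 (-0.87, adjusted p = 0.0177). Of the 8, 7 kept their sign, and for 1, Olfr975, singled out after its values were seen, the sign turned: it was -0.89 ± 0.29 without the covariate (adjusted p = 0.00831) and 0.78 with it (adjusted p = 0.0446). Of the 14 in mIAPP islets 5 had been called before, Olfr250, Olfr1023, Olfr1402, Olfr152 and Olfr1247.

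Summed markers of other cells differed in range between the glucose concentrations for some cell types and overlapped for others. The 5 macrophage markers, none at 0 in all libraries, summed to 63.2 to 114 CPM in hIAPP 16.7 mM, 57.1 to 105 in mIAPP 16.7 mM, 132 to 244 in hIAPP 11.1 mM and 122 to 216 in mIAPP 11.1 mM islets. In the same order the 5 endothelial markers summed to 9.23 to 29.8, 20.4 to 69.6, 26.8 to 81.3 and 34.6 to 102 CPM, and the 5 ductal markers to 566 to 1292, 435 to 867, 293 to 564 and 288 to 427 CPM. Their part in the levels of the members was not tested.

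**Figure D5:**
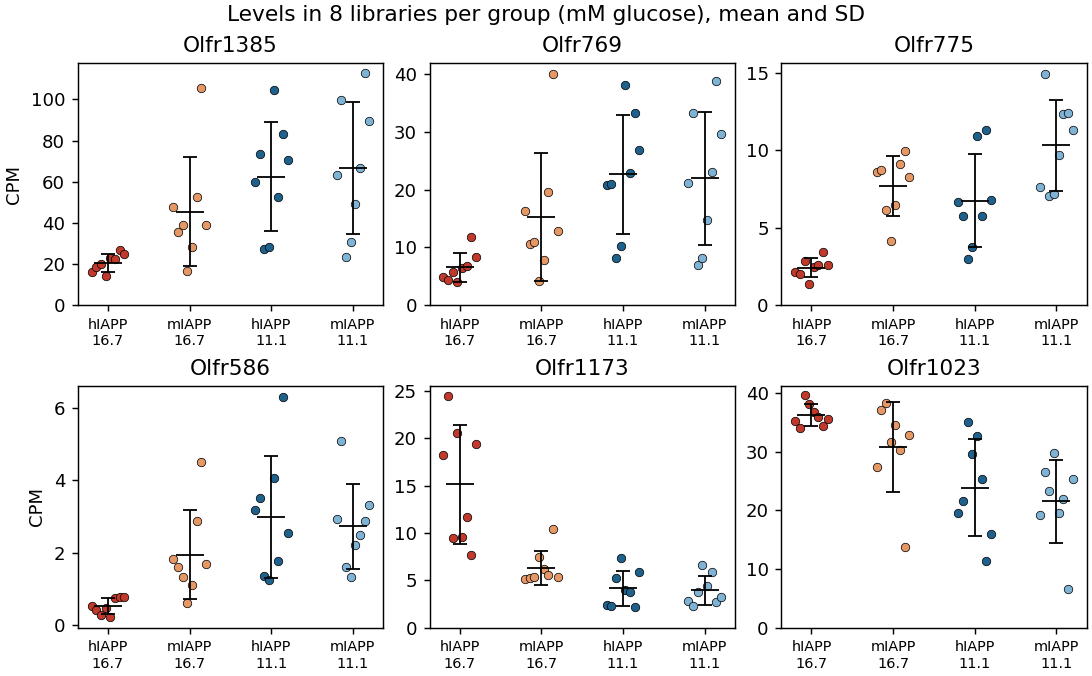
Level (CPM) of 6 Olfr genes in each library by group and glucose concentration (mM), with the mean and SD of 8 libraries. Olfr775 and Olfr586 had their lowest medians in hIAPP 16.7 mM islets (2.52 and 0.504 CPM), as did Olfr1385 and Olfr769 (21.3 and 6.11 CPM), while Olfr1173 and Olfr1023 had their highest there (15.0 and 35.8 CPM).

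The interaction asks whether the genotype effect differs between the glucose concentrations. It was negative for 181 of 194 members, at a median of -0.76 against -0.02 over all genes. It passed for 9, all of them negative, against 0.95% of all genes that were negative and 2.17% that were positive (3.12% either way). Vomeronasal type 1 and 2 genes had median interactions of -0.88 and -0.73. Olfr676, a class I gene (chromosome 7, 105032698 to 105037750, plus strand), had 0.156, 0.445 and 0.752 CPM in hIAPP 16.7 mM and 0.607, 0.999 and 1.14 CPM in mIAPP 16.7 mM islets. At 11.1 mM it had 0.923, 1.15 and 1.75 CPM in hIAPP and 0.382, 0.782 and 1.40 CPM in mIAPP islets, so that the hIAPP median was the lower one at 16.7 mM and the higher one at 11.1 mM, with overlap at both. Its interaction was -1.78 ± 0.36 (edgeR, adjusted p = 0.00416), and -1.89 with the mitochondrial covariate (adjusted p = 0.0159), and its slope on the share was -0.10 ± 0.18 (adjusted p = 0.703).

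Olfr586 had an interaction of -1.80 ± 0.37 (edgeR, adjusted p = 0.00488), which, like that of Olfr676, passed whichever set was left out. Olfr775, Olfr1310 and Olfr825 had -0.98 ± 0.24, -1.46 ± 0.36 and -1.05 ± 0.27 (adjusted p = 0.0203, 0.0216 and 0.0271), and each call was lost when 1 of some sets was left out (1, 6, 7 or 8 for Olfr775, 1 or 6 for Olfr1310, and 1, 4, 5, 6 or 8 for Olfr825). Olfr39 (chromosome 9, 20282351 to 20287578, plus strand) had -3.65 ± 0.92 (adjusted p = 0.0257) at 0 to 0.270 CPM in hIAPP 16.7 mM and 0.107 to 7.86 CPM in mIAPP 16.7 mM islets, and it did not pass without set 2, 4, 5, 6, 7 or 8. Olfr45, Olfr1440 and Olfr1120 had -0.99 ± 0.26, -1.23 ± 0.33 and -0.92 ± 0.26 (adjusted p = 0.0348, 0.0356 and 0.0464), and none of these 3 passed without set 1, 5, 6 or 8. Without the set as a block Olfr676 and Olfr586 were the 2 that passed. Leaving out the mIAPP 16.7 mM library of set 7, 8 members had a negative interaction past the threshold and 1, Olfr1173, a positive one (1.43, adjusted p = 0.00999), against 2.74% of all genes. With the covariate 2 were negative, against 1.58% of all genes, Olfr676 and Olfr1284 (-2.80, adjusted p = 0.0465), a member at 0.532 CPM named after its values were seen.

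Without the set as a block 25 members passed in the genotype comparison at 16.7 mM (7.92% of all genes), 9 in the glucose comparison of mIAPP islets (34.8%) and 2 for the interaction (1.19%). The rule asked for 10 counts in 16 libraries, so a member low in both 16.7 mM groups could enter only if it was read at 11.1 mM, and one low in both hIAPP groups only if it was read in mIAPP islets. Among the 84 members with 10 counts in all 32 libraries, 33 were lower and 2 higher in hIAPP 16.7 mM than in mIAPP 16.7 mM islets, and 72 were lower and 4 higher with glucose in hIAPP islets. In mIAPP islets 21 of the 84 were lower and 2 higher with glucose. For these 84, 5 interactions passed, and 65 rose and 1 fell with the mitochondrial share. Of all genes tested, 20.5, 65.5, 47.5, 3.12 and 37.5% were called either way, in the order of these counts.

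Of 14 olfactory receptors with a reported role outside the nose 7 were members. Olfr90 was the highest of them at 18.5 CPM, followed by Olfr558 (1.23), Olfr2 (1.13), Olfr734 (0.740), Olfr109 (0.622), Olfr691 (0.559) and Olfr78 (0.408). The other 7 did not meet the rule. Olfr15, reported in beta cells, had 95 counts over the 32 libraries, Olfr543 and Olfr1393 had 58 each, Olfr544, a receptor for azelaic acid, had 50, Olfr288 had 31, Olfr16, reported in sperm and muscle, had 1, and Olfr821 had 0.

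Olfr558, a class I receptor for short-chain fatty acids (chromosome 7, 102702215 to 102712064, plus strand), had 0.274, 0.399 and 0.940 CPM in hIAPP 16.7 mM and 0.357, 0.934 and 2.03 CPM in mIAPP 16.7 mM islets, and 0.817, 1.84 and 2.64 CPM in hIAPP 11.1 mM and 1.00, 1.39 and 2.14 CPM in mIAPP 11.1 mM islets. Its lowest median was that of hIAPP 16.7 mM, whose range lay below that of mIAPP 11.1 mM and overlapped those of the other groups. With 16.7 mM glucose it was lower in hIAPP islets than in mIAPP islets (-1.03 ± 0.32, adjusted p = 0.0235, edgeR) and lower at 16.7 than at 11.1 mM in hIAPP islets (-1.99 ± 0.32, adjusted p = 8.54e-06). With the mitochondrial covariate the genotype value was -1.02 and did not pass (adjusted p = 0.183). The glucose change in hIAPP islets was -1.95 with it (adjusted p = 0.0145), and the slope on the share was 0.02 ± 0.23 (adjusted p = 0.962). Its exons overlap those of Gm45688 on the opposite strand. Olfr78, another receptor for short-chain fatty acids, had 356 counts in all and was at 0 in 3 libraries. It passed in no comparison, and its exons overlap those of Olfr560 on the same strand.

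Olfr2, an octanal receptor, and Olfr691 rose with the share by 0.76 ± 0.24 and 0.98 ± 0.26 (edgeR, adjusted p = 0.0152 and 0.00509). Olfr90, the highest of these receptors, rose with it by 0.64 ± 0.10 (adjusted p = 3.30e-05). With 16.7 mM glucose Olfr109 was lower in hIAPP islets than in mIAPP islets (-1.18 ± 0.34, adjusted p = 0.0183, and -0.87 with the covariate, adjusted p = 0.339), with overlapping groups at 0.119 to 0.352 CPM in hIAPP 16.7 mM and 0.177 to 2.37 CPM in mIAPP 16.7 mM islets. Olfr734, reported as a receptor for the hormone asprosin, passed in none of the comparisons, with values between -0.26 and 0.02 in the 5 group comparisons and a slope of 0.29 ± 0.22.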

How the data were processed

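RNA sequencing of 32 islet libraries was analysed. The authors deposited expected counts per gene, whole numbers not scaled to library size, made with bcl2fastq 1.8.4 and kallisto 0.45.0 on GRCm38, per the submitters' processing notes. The step from transcripts to whole numbers per gene is not given in the sources used here. Each column was matched to a sample by its label. The members and lists were chosen with earlier results of these data known.

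Counts were scaled with TMM and filtered with filterByExpr in edgeR 4.0.16 (limma 3.58.1, R 4.3.3), which left 16428 genes. The 4 groups and the set entered 1 quasi-likelihood fit (21 residual degrees of freedom). A further fit added log2 of the mitochondrial percent (20 degrees of freedom). P values were adjusted by Benjamini-Hochberg over all genes tested, at a threshold of 0.05. The procedure was tested on simulated data. Log2 fold changes carry their standard error. DESeq2 1.42.0, other filters and scalings, and left-out sets were alternatives.

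By the labels each set held the 4 groups, so the set was a block. Libraries of the same set correlated, after group means were removed, with a mean r of 0.145 to 0.320 between pairs of groups.

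Members were named when they were among the 10 highest in CPM or 5 highest per kb, had the smallest p in a comparison (6 per direction) or slope (8), had a reported role outside the nose, lay next to the threshold, or had the 5 largest ratios of highest to median library. Sequence sharing was counted over 31-base stretches of GENCODE M21 transcripts.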

Additional observations from a re-analysis of the deposited data

Results flagged for a closer look

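In each group of 8 libraries the highest and lowest values of the summed level, of the mitochondrial share and of 47 named members, each as log2(value + 0.5), were examined for a library far from the rest (Dixon's ratio past its 95% critical value for 8 libraries), which chance gives in about 1 of 20 groups. Of 196 groups 27 had one, 22 of these in set 7 and 15 of them in the mIAPP 16.7 mM library of set 7. These groups reuse the same 32 libraries. In addition, 5 of the members were named for a highest library far above their median. The 27 thus cannot be set against the rate of 1 in 20. In that library the summed level was 1772 CPM, with 634 CPM next, and the single genes above their group were Olfr784 (250.2 CPM), Olfr1307 (39.2), Olfr906 (30.8), Olfr905 (25.8), Olfr620 (21.4), Olfr907 (14.0), Olfr157 (12.4), Olfr1310 (12.0), Olfr39 (7.86), Olfr380 (4.29), Olfr2 (3.80), Olfr691 (2.86) and Olfr109 (2.37). Olfr1023 was below its group there, at 13.8 CPM. In the mIAPP 11.1 mM library of set 7, Olfr784 was high at 119 CPM, and Olfr1023 and Olfr613 were low at 6.59 and 0 CPM. The hIAPP 16.7 mM library of set 7 was high for Olfr906 (3.47 CPM), Olfr905 (3.04) and Olfr57 (4.05), and the hIAPP 11.1 mM one for Olfr906 (77.5). Outside set 7, Olfr648 was high in the hIAPP 16.7 mM library of set 5 (16.7 CPM), Olfr414 in the mIAPP 16.7 mM library of set 1 (0.618) and Olfr250 in the mIAPP 11.1 mM library of set 2 (0.692). Olfr802 was low in the hIAPP 16.7 mM library of set 4 (0.501) and Olfr1247 in the mIAPP 16.7 mM library of set 4 (2.00).

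The genotype effect differed between the glucose concentrations, by the edgeR test of the interaction, for 9 members: Olfr676 (-1.78), Olfr586 (-1.80), Olfr775 (-0.98), Olfr1310 (-1.46), Olfr39 (-3.65), Olfr825 (-1.05), Olfr45 (-0.99), Olfr1440 (-1.23) and Olfr1120 (-0.92, log2 scale). They are 4.64% of the members, against 3.12% of all genes tested. Of the 9, only Olfr676 passed with the mitochondrial covariate, and only Olfr676 and Olfr586 without the set as a block.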

How the results depend on the processing

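Counts of members past the threshold were 66 for hIAPP against mIAPP at 16.7 mM, 0 at 11.1 mM, 163 lower and 4 higher for glucose in hIAPP islets, 31 in mIAPP islets, 9 for the interaction and 124 for the mitochondrial slope. Of all genes tested 20.5, 0.128, 65.5, 47.5, 3.12 and 37.5% were called either way, in the same order. Without the replicate block the counts of members moved most for the genotype comparison at 16.7 mM (25), glucose in mIAPP islets (9) and the interaction (2). The sets, paired by the labels, left out 1 at a time gave 23 to 80, 0 to 2, 149 to 165, 9 to 58, 2 to 8 and 99 to 128 in the order above; sets 1, 6 and 7 lowered the first to 26, 29 and 23, sets 2 and 8 lowered glucose in mIAPP islets to 9 and 11, set 7 raised it to 58, and sets 1, 5, 6 and 8 lowered the interaction to 3, 5, 2 and 3. Leaving out the mIAPP 16.7 mM library of set 7, the genotype comparison gave 30 and glucose in mIAPP islets 54, and without both 16.7 mM libraries of that set, a choice made after seeing the data, 23 and 54. DESeq2 gave 2 for the genotype comparison at 11.1 mM (Olfr341 and Olfr613, as without set 7), 47 for glucose in mIAPP islets and 21 for the interaction. Of all 16428 genes it called 35, 8303 and 959, in the same order. With no filter on low counts glucose in mIAPP islets gave 16, with 6913 of all 28284 genes called. A mean of at least 1 CPM left 97 members, with 87 for glucose in hIAPP islets and 81 for the slope, and 9601 and 5726 of all 13973 genes. The mitochondrial covariate gave 8, 1, 10, 14 and 2. The slope gave 23 within 11.1 mM and 55 within 16.7 mM. Shorter lists were parts of the same fits, so their counts could not be higher, and a lower count there is no sign of weakening. With 10 counts in all 32 libraries (84 members) they gave 35, 76, 5 and 66 for the genotype comparison at 16.7 mM, glucose in hIAPP islets, the interaction and the slope. With 20 counts in 16 libraries (120) glucose in hIAPP islets gave 106. Members with under 10% shared 31-base stretches (101, chosen after seeing the data) gave 34 for the genotype comparison at 16.7 mM, 91 for glucose in hIAPP islets, 15 in mIAPP islets and 61 for the slope. Of the 44 called values by which the rule named members, 3 turned (other calls, such as that of Olfr975, are not counted here): Olfr1033 for glucose in hIAPP islets (-0.14 with the covariate), and the slopes of Olfr648 (0.30 within 11.1 mM) and Olfr330 (0.0186 without group terms); the cause was not tested. RLE size factors and removing the mitochondrial genes before scaling moved no count by over 1.5 times and ended none of these calls. The summed level in the highest library was 6.01 times that in the lowest, 5.61 without the 10 highest members, and, with TMM scaling dropped too, 5.13 without mitochondrial counts in the denominator and 5.79 without insulin counts as well; as a plain share of counts it ran from 0.0326 to 0.112%. Low counts limit the smallest change that could be called, and 88 members lay under 1 CPM.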
